A study of Mus musculus with 6 samples.

Results

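The genes described here carry out DNA damage signalling and repair. They are 47 genes chosen by function and found by symbol in the deposited table, which held all 47 among its 23057 genes. They were sorted by role into 8 groups, from the kinases that sense damage to the repair of crosslinks. Brain RNA of C57BL/6 mice was sequenced. One group of 3 samples (labelled IR) came from mice irradiated through the head with X-rays to a total of 10 Gy in a field 10.08 mm wide, and 3 samples (labelled Mock-IR) came from mock-irradiated mice. In both groups the brains were taken on day 30, after perfusion with phosphate-buffered saline. The sources used here give neither age nor sex of the mice. Libraries are called mock 1 to 3 and irradiated 1 to 3. The labels do not say whether each is 1 mouse or a pool.

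The values are FPKM, reads per kilobase of transcript scaled to a library's total, so levels can be compared between genes. Between 40 and 42 of the 47 genes reached 0.5 FPKM in a library. Sequencing reached some 30 to 40 M reads a sample, as the labels have it. The exact depth is unknown, and it limits what can be seen of the lowest genes. The labels call the samples whole brain, but several sets of region markers differed strongly between libraries. The 15 cerebellum markers summed to between 1438 and 2123.9 FPKM in the mock libraries and to between 183.2 and 307.8 FPKM in the irradiated ones. Gabra6, a marker of cerebellar granule cells, was listed at 0 in irradiated 2 and at 0.02 FPKM in irradiated 3, and Pcp2, a Purkinje cell gene, fell from at least 477.5 to at most 22.2 FPKM. The 8 telencephalon markers summed to 9.16 FPKM in mock 2, to 46.8 and 45.9 FPKM in mock 1 and mock 3, and to between 94.3 and 190.8 FPKM in the irradiated libraries. Of 8 hippocampus markers, 5 rose. Doc2g, which marks output cells of the olfactory bulb, split both groups, at 94.4, 6.22 and 117.7 FPKM in the mock mice and 123.4, 3.96 and 4.26 FPKM in the irradiated ones. Regional makeup and irradiation therefore cannot be told apart in this design. Of the other marker lists, 1 of 10 microglia markers rose, while 3 of 8 markers of oligodendrocyte precursors and 2 of 8 of myelinating oligodendrocytes fell. Of the astrocyte markers 2 of 7 fell, 1 of 6 olfactory bulb markers rose (Slc17a7), and of the lymphocyte markers 1 of the 2 tested rose (Lck). No neuron, endothelium or dividing cell marker was called (limma, adjusted p under 0.05). At an unadjusted p under 0.05, 6 of the 10 microglia markers were higher. By that measure 5 of the 8 precursor markers and all 8 markers of myelinating oligodendrocytes were lower. Of all genes tested 11.7% were higher and 13.9% lower. Fewer cells of a type cannot be told apart from less RNA per cell either.

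Cells meet broken DNA with a set of dedicated pathways. The kinases ATM and ATR respond to double-strand breaks and to exposed single-stranded DNA, and they pass the signal to CHEK2 and CHEK1. Breaks are rejoined by end joining throughout the cell cycle, or copied from the sister chromatid by homologous recombination once DNA has been replicated. Damaged bases, bulky lesions, mispaired bases and crosslinks are handled by base excision, nucleotide excision, mismatch repair and the Fanconi anaemia pathway. Neurons no longer divide, and end joining and excision repair are the routes best known in them. X-rays cause oxidised bases, single-strand breaks and double-strand breaks.

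The starts of these genes were compared first. In the GENCODE annotation of GRCm38, the assembly that mm10 stands for, 21 of the 47 genes (44.7%) had a gene on the other strand that starts within 1000 bases of their own start. The share was 17.5% among the 19896 protein-coding genes of the table. Counting only protein-coding neighbours, it was 34.0% of the 47 genes against 11.1%. These backgrounds include genes too low to be tested, and the shares among tested genes alone were not computed. Promoter windows from RefSeq (build GRCm38.p6), which run from 250 bases before the start to 50 bases after it, matched 41 of the 47 genes. In these 41 windows the median ratio of observed to expected CpG dinucleotides was 0.896, beside 0.75 over the 11020 windows of tested genes and 0.389 over all 27025. An E2F motif, TTTGGCGC or TTTCCCGC on either strand, was in 6 of the 41 windows (14.6%), those of Chek2, Xrcc6, Mdc1, Brca2, Msh3 and Msh6. It was in 2.84% of the windows of tested genes and in 1.63% of all windows. The CCAAT box of NF-Y was in 53.7% of the 41 windows against 38.2% of those of tested genes, and the ETS motif CCGGAAG in 24.4% against 16.4%. The NRF1 motif was in 2 windows (4.88%, against 1.92%), and TTTGAA, the CHR element of cell-cycle genes, was also in 2 (4.88%, against 11.0%). These matches describe letters and were not tested as binding sites.

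5 windows are printed to show these features beside the values below. They are those of Atr, the gene with the lowest log2 change, of Mutyh, Apex1 and Palb2, which share a start region with a neighbour, and of Msh6, which has an E2F match. Capitals mark matches to the motifs named above, and each window is read 5′ to 3′ on the gene's own strand. The Atr window lies at chr9:95857347-95857646 (plus strand) and has an ETS match. The Mutyh window is at chr4:116807484-116807783 (plus strand), with an NF-Y match and, 94 bases before the Mutyh start, the start of Toe1 on the other strand. The Apex1 window is at chr14:50924699-50924998 (plus strand), with a pair of NF-Y matches, and Osgep starts 56 bases before the Apex1 start. The Palb2 window is at chr7:122132897-122133196 (minus strand), with an ETS and an NF-Y match, and Dctn5 starts 95 bases before the Palb2 start. The Msh6 window, at chr17:87974800-87975099 (plus strand), has an NF-Y match before the start and an E2F match 16 bases into the transcript.
Atr: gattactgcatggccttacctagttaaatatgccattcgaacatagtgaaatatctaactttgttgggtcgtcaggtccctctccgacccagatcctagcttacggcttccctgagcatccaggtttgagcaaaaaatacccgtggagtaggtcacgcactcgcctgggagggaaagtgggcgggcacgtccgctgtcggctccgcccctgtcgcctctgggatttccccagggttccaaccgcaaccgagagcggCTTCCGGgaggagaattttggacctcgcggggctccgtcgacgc
Mutyh: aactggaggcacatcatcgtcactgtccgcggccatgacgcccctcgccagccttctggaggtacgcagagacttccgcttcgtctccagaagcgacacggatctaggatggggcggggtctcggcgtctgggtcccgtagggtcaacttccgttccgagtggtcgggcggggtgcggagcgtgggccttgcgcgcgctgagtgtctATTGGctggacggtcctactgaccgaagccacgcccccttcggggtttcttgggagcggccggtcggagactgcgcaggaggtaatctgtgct
Apex1: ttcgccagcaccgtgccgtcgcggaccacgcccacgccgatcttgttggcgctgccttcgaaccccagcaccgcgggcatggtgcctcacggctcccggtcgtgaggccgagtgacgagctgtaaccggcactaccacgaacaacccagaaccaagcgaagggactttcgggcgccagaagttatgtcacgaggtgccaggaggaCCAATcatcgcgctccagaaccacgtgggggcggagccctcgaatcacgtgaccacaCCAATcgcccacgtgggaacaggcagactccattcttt
Palb2: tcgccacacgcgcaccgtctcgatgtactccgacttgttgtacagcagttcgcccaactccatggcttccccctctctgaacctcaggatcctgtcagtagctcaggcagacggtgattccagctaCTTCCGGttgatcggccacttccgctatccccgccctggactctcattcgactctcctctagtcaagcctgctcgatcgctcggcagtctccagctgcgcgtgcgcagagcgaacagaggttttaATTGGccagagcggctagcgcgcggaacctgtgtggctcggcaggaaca
Msh6: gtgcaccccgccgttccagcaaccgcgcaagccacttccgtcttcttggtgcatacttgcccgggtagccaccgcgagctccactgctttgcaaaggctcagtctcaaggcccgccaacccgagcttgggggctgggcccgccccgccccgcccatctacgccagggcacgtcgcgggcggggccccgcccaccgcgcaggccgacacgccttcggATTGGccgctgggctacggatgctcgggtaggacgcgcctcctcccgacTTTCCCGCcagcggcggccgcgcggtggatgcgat

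None of the damage and repair genes that could be tested passed the test for a difference between irradiated and mock brains. Of the 41 that averaged 0.5 FPKM or more in all libraries together, 0 rose and 0 fell (limma, Benjamini-Hochberg adjusted p under 0.05; smallest adjusted p = 0.12). Over all 14585 genes tested the share was 7.72%, made up of 3.48% that rose and 4.24% that fell. At an unadjusted p under 0.05, 1 was higher and 3 were lower, 9.76% of the 41, beside 25.6% of all genes tested. The differences were also small. The median size of the log2 change, whatever its sign, was 0.14 for the repair genes and 0.28 over all genes tested, with a median standard error of 0.19 and 0.20. None of the 41 differed by 1 or more on the log2 scale, which 6.62% of all genes tested did. For 40 of the 41 (97.6%) the 95% interval lay wholly between -1 and 1, beside 73.5% of all genes tested. The exception was Atr, whose interval reached -1.03. In 27 of the 41 (65.9%) the irradiated mean was lower, beside 51.8% of all genes tested, and the median log2 change was -0.076 against -0.018. That lean depended on the scaling: with quantile normalization 19 of the 41 were lower and the median was 0.019.

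**Figure D1:**
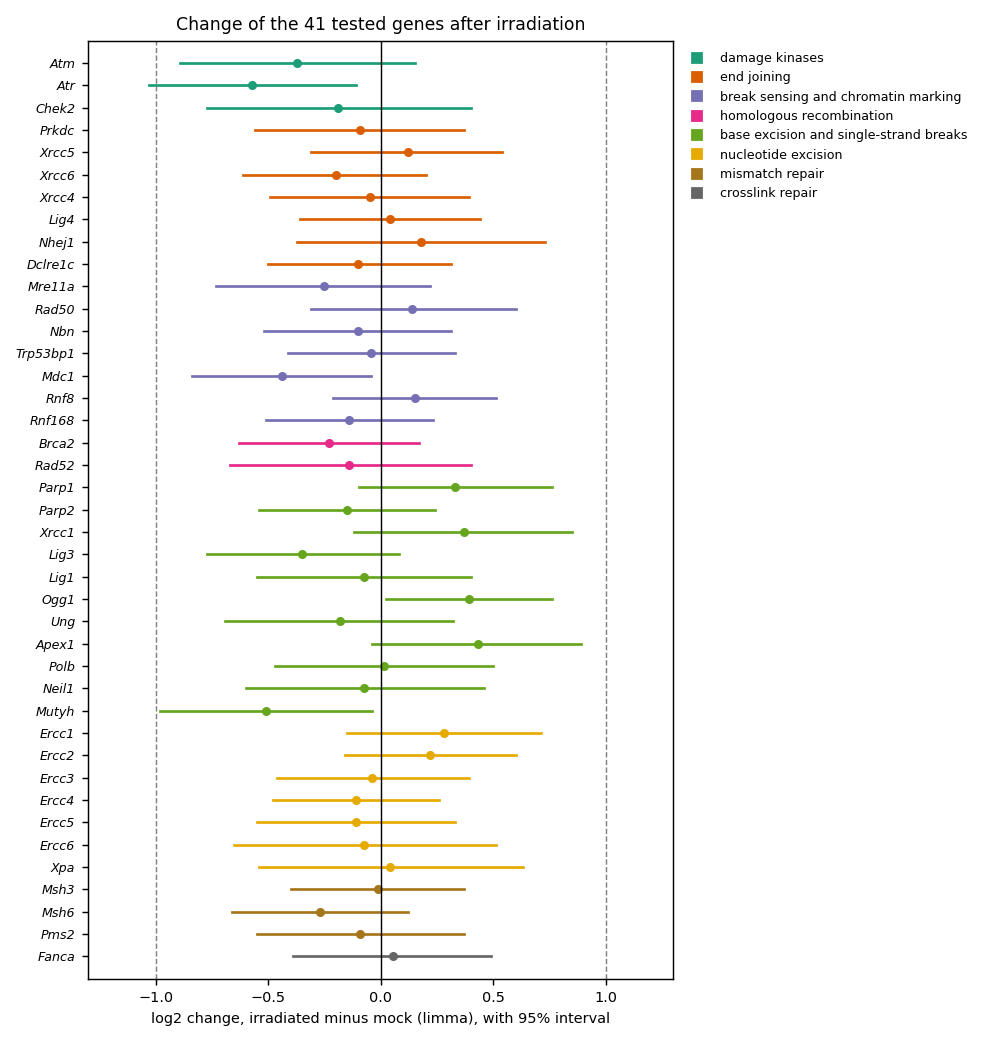
Log2 change on the log2(FPKM + 0.5) scale, irradiated minus mock, of the 41 tested genes (points) with the 95% interval from limma (lines), coloured by role; dashed lines mark a change of 1 in either direction. The points lie between -0.57 and 0.43, and 40 of the 41 intervals lie within the dashed lines.

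The range of levels within the group was far wider than any difference between the mock and irradiated libraries. Polb, the polymerase that fills gaps in base excision repair, had the highest mean over the 6 libraries (44.9 FPKM), and Chek1 the lowest (0.265 FPKM). Base excision and nucleotide excision genes filled the upper end. Parp1, which senses strand breaks, had a mean of 23.9 FPKM, Ercc1, a subunit of an excision nuclease, 22.7 FPKM, and Ercc3, a helicase of TFIIH, 18.3 FPKM. Rnf8, a ubiquitin ligase that marks chromatin at breaks, had one of 20.2 FPKM. At the lower end, 9 of the 47 had a mean under 1 FPKM. They were Chek1, Chek2, Brca1, Brca2, Rad54l, Palb2, Fanca, Fancd2 and Fanci, all of them kinases or genes of recombination and crosslink repair. Among the recombination genes only Rad52, an annealing protein, was well above that, with a mean of 5.79 FPKM. Of 10 markers of dividing cells, 6 were under the filter, among them Mki67 and Top2a, at most at 0.152 and 0.252 FPKM in any library. The other 4 were Pcna, with a mean of 47.1 FPKM, Mcm2 (3.34), Ccna2 (1.69) and Birc5 (0.977), and none of these was called. The 11 genes that averaged 10 FPKM or more include no damage kinase, no recombination gene, no mismatch repair gene and no crosslink repair gene.

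**Figure D2:**
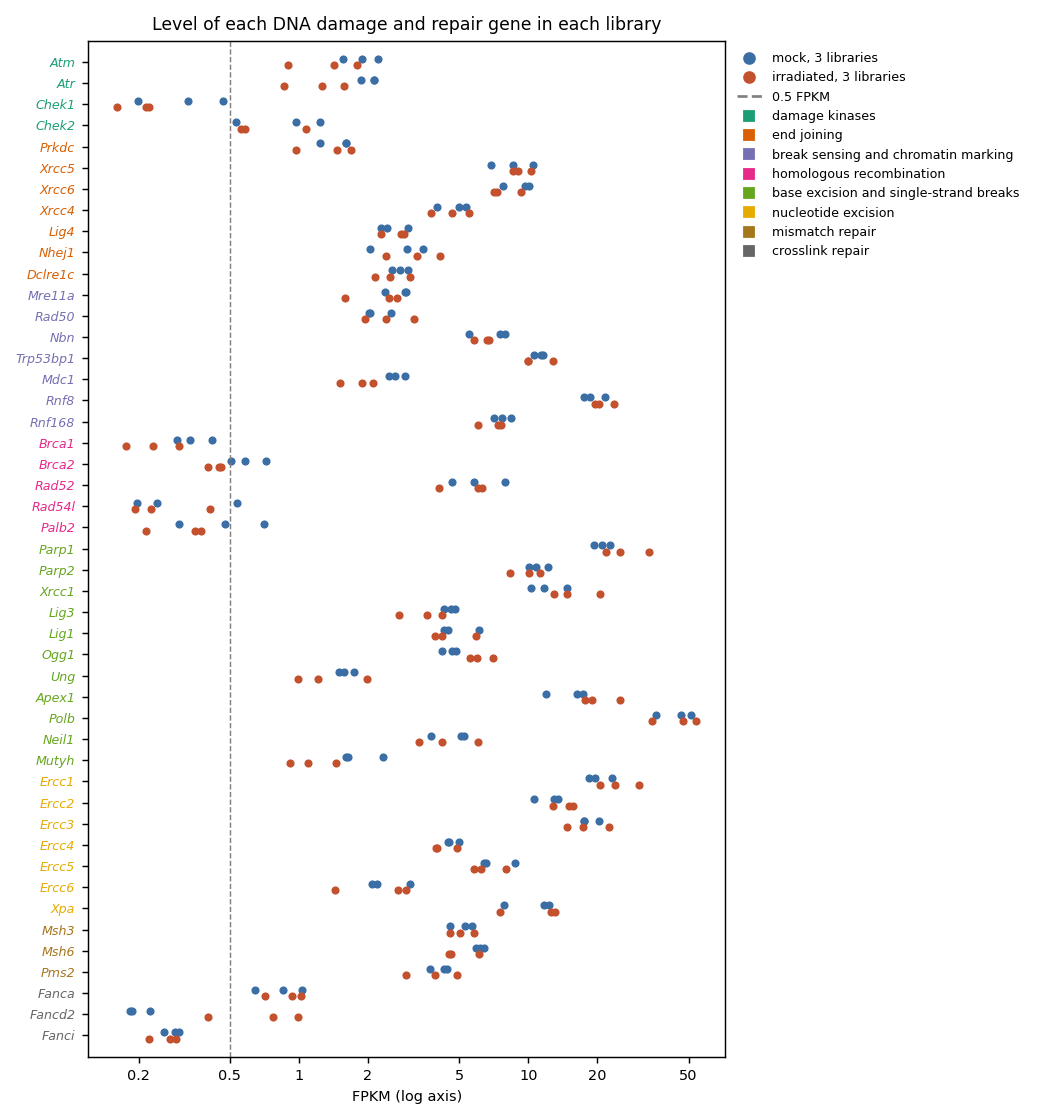
FPKM of each of the 47 genes (log axis) in the 3 mock libraries (blue) and the 3 irradiated libraries (orange), with gene names coloured by role; the dashed line is 0.5 FPKM, the mean needed for testing. Points of the groups intermingle for most genes, while levels run from under 0.5 FPKM for Chek1, Brca1 and Fanci to 34.6 FPKM and more for Polb.

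None of the 3 damage kinases tested passed the test, and Atr was the only one whose groups were separate. Atr, which answers stalled replication forks (chromosome 9, 95857597 to 95951781), was at 2.12, 2.12 and 1.86 FPKM in the mock mice and at 0.862, 1.58 and 1.26 FPKM in the irradiated mice. The groups did not overlap, and irradiated 1 was the lowest. Its log2 change was -0.57 (SE 0.20, 95% interval -1.03 to -0.11, limma adjusted p = 0.12). Atm, the kinase first called to double-strand breaks (chromosome 9, 53439149 to 53536740), was at 2.22, 1.88 and 1.55 FPKM in the mock mice and at 0.894, 1.80 and 1.42 FPKM in the irradiated mice. Here the groups overlapped, and the log2 change was -0.37 (SE 0.23, adjusted p = 0.34 by limma). Chek2, the effector kinase of ATM, was at 0.531, 1.24 and 0.969 FPKM in the mock mice and at 1.07, 0.557 and 0.581 FPKM in the irradiated mice. Each group held libraries near 0.5 and near 1 FPKM, and the log2 change was -0.19 (SE 0.26). Chek1, the effector kinase of ATR, was under the filter, at 0.198, 0.467 and 0.329 FPKM in the mock mice and 0.222, 0.215 and 0.161 FPKM in the irradiated mice.

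In the end joining genes the mock and irradiated libraries overlapped throughout. Of the 7 tested, none passed, and the log2 changes ran from -0.20 to 0.18 with a median of -0.047. Xrcc5 and Xrcc6 encode the Ku proteins, which cap a broken end. Xrcc5 was at 6.86, 8.57 and 10.5 FPKM in the mock mice and at 10.3, 8.59 and 9.02 FPKM in the irradiated mice, and Xrcc6 was at 7.75, 9.71 and 10.1 FPKM and at 9.30, 7.34 and 7.11 FPKM. Both pairs of groups overlapped, with log2 changes of 0.12 (SE 0.19) and -0.20 (SE 0.18). Prkdc encodes the catalytic subunit that Ku recruits, and its level was far lower per length, at 1.60, 1.60 and 1.24 FPKM in the mock mice and 0.971, 1.47 and 1.68 FPKM in the irradiated mice (log2 change -0.094, SE 0.21). Nhej1, which encodes XLF, a factor that helps align the ends, had a log2 change of 0.18 (SE 0.24), with mock libraries at 2.04, 3.46 and 2.97 FPKM and irradiated libraries at 4.14, 2.39 and 3.26 FPKM. The ligase gene Lig4, its partner Xrcc4 and the nuclease gene Dclre1c (Artemis) had log2 changes of 0.04, -0.047 and -0.099.

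Among the 7 genes that sense breaks and mark the chromatin around them, Mdc1 differed most. Mdc1, a scaffold that binds phosphorylated histone H2AX (chromosome 17, 35841515 to 35859670), was at 2.90, 2.63 and 2.46 FPKM in the mock mice and at 1.51, 2.11 and 1.88 FPKM in the irradiated mice. The groups did not overlap, but the change did not pass the adjustment (log2 change -0.44, SE 0.18, 95% interval -0.84 to -0.041, limma adjusted p = 0.16). Trp53bp1, the adaptor that steers breaks to end joining, was at 11.4, 11.6 and 10.6 FPKM without and at 9.99, 12.8 and 9.99 FPKM after irradiation, with overlap (log2 change -0.041, 95% interval -0.41 to 0.33). None of the 3 subunits of the MRN complex, which holds and trims broken ends, passed the test. Mre11a was at 2.37, 2.92 and 2.89 FPKM in the mock mice and 1.59, 2.67 and 2.46 FPKM in the irradiated mice, while Rad50 and Nbn had log2 changes of 0.14 (SE 0.20) and -0.10 (SE 0.18). The ubiquitin ligase genes Rnf8 and Rnf168 had log2 changes of 0.15 (SE 0.16) and -0.14 (SE 0.16).

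Recombination genes were too low for most of them to be tested. Brca1, a ubiquitin ligase that steers breaks to recombination, was at 0.416, 0.295 and 0.334 FPKM in the mock mice and at 0.301, 0.176 and 0.231 FPKM in the irradiated mice. Rad54l, a motor protein of strand exchange, was at 0.539, 0.240 and 0.197 FPKM and at 0.411, 0.227 and 0.192 FPKM. Palb2, which links BRCA1 to BRCA2, was at 0.301, 0.476 and 0.702 FPKM and at 0.375, 0.353 and 0.216 FPKM. In these 3 genes the groups overlapped, and without a filter none was called (limma adjusted p = 0.30, 0.98 and 0.50). Brca2, which loads the recombinase onto DNA, passed the filter with a mean of 0.519 FPKM, helped by its mock libraries at 0.719, 0.580 and 0.505 FPKM. Its irradiated libraries were at 0.402, 0.458 and 0.450 FPKM, all below mock, and the log2 change was -0.23 (SE 0.18, limma adjusted p = 0.44). Brca2 passed the filter only through the group where it is higher, so this separation is no support for a difference. Rad52 had mock libraries at 4.66, 5.78 and 7.88 FPKM and irradiated libraries at 6.28, 4.09 and 6.03 FPKM, with a log2 change of -0.14 (SE 0.23).

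Base excision genes held the only repair genes that lay higher with no overlap among those tested, and they also held genes that lay lower. Ogg1, the glycosylase that removes 8-oxoguanine (chromosome 6, 113326972 to 113335068), was at 4.22, 4.64 and 4.86 FPKM in the mock mice and at 5.96, 5.56 and 7.02 FPKM in the irradiated mice. All 3 irradiated libraries were above mock (log2 change 0.39, SE 0.16, 95% interval 0.023 to 0.76, limma adjusted p = 0.17). Mutyh, which removes adenine paired with the same damaged base (chromosome 4, 116807723 to 116819440), went the other way, with 2.32, 1.61 and 1.63 FPKM in the mock mice and 1.45, 1.10 and 0.914 FPKM in the irradiated mice. Its groups did not overlap either (log2 change -0.51, SE 0.21, 95% interval -0.98 to -0.039, limma adjusted p = 0.17). Apex1, the endonuclease that cuts at the empty site (chromosome 14, 50924968 to 50927139), was at 11.9, 16.3 and 17.3 FPKM in the mock mice and at 18.9, 17.7 and 25.1 FPKM in the irradiated mice, a narrow separation (log2 change 0.43, SE 0.20, adjusted p = 0.23 by limma). Lig3, the ligase of this route, was at 4.79, 4.6 and 4.27 FPKM in the mock mice and at 2.72, 4.22 and 3.62 FPKM in the irradiated mice (log2 change -0.35, SE 0.19, adjusted p = 0.28 by limma). Its scaffold partner Xrcc1 had a log2 change of 0.37 (SE 0.21), with irradiated 1 highest at 20.5 FPKM and the other irradiated libraries within or at the top of the mock range of 10.3 to 14.8 FPKM. Parp1 was at 21.0, 19.4 and 22.6 FPKM in the mock mice and at 21.9, 25.1 and 33.7 FPKM in the irradiated mice (log2 change 0.33, SE 0.19, adjusted p = 0.31 by limma), so irradiated 3 stood above the rest. The other members of this role, Parp2, Lig1, Ung, Polb and Neil1, had log2 changes between -0.18 and 0.016. With 7 of the 41 tested genes separated between the groups (Ogg1 and Apex1 higher, and Atr, Mdc1, Brca2, Lig3 and Mutyh lower), the share was 17.1%. Brca2 is in this count only because its mock libraries took it past the filter. Over all genes tested it was 31.5%, with 13.7% above and 17.7% below the mock range.

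**Figure D3:**
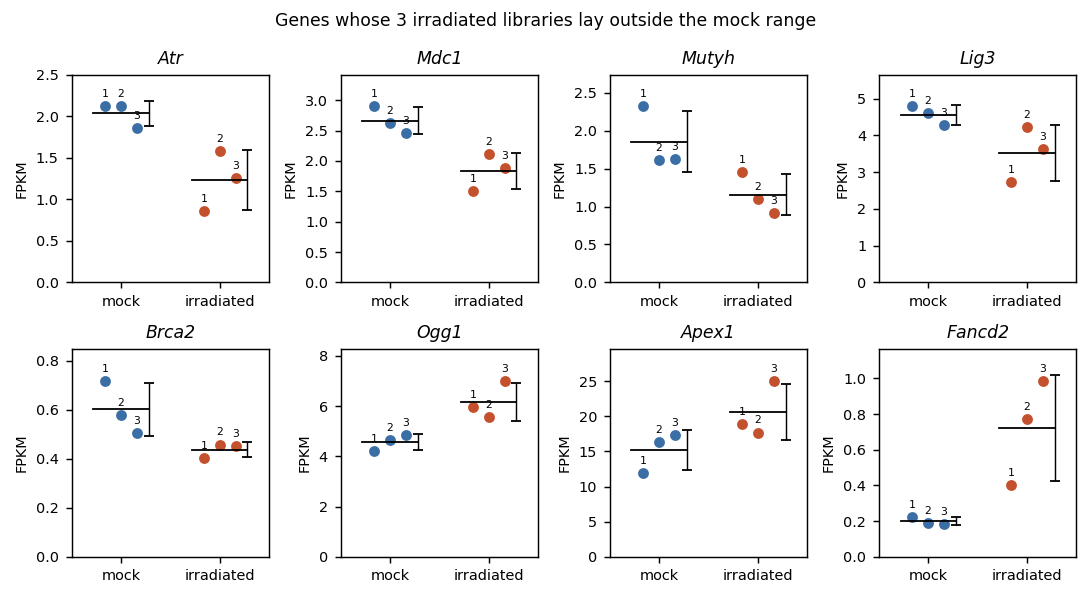
FPKM in each library (points, numbered by replicate) of the 7 tested genes with no overlap between mock and irradiated mice, and of Fancd2, which was below the filter; long bars are means and the brackets are 1 SD (n = 3). Irradiated 1 is the lowest library for Atr, Mdc1, Lig3 and Brca2, and the Fancd2 irradiated libraries at 0.403, 0.772 and 0.988 FPKM lie above its mock libraries.

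Nucleotide excision and mismatch repair held no gene that passed the test, and in none of them were the groups separate. The 7 nucleotide excision genes had log2 changes from -0.11 to 0.28. Ercc1 was at 18.4, 19.5 and 23.2 FPKM in the mock mice and at 30.5, 20.5 and 24.0 FPKM in the irradiated mice, where irradiated 1 stood highest (log2 change 0.28, SE 0.19). Ercc2, a helicase of TFIIH, was at 13.5, 10.6 and 13.0 FPKM in the mock mice and at 12.8, 15.1 and 15.6 FPKM in the irradiated mice (log2 change 0.22, SE 0.17). Ercc3, its partner helicase, the nuclease genes Ercc4 and Ercc5, the transcription-coupling factor gene Ercc6 and the damage-binding gene Xpa had log2 changes of -0.037, -0.11, -0.11, -0.073 and 0.043. In mismatch repair, Msh6, which recognises single mispairs, was at 6.17, 6.44 and 5.89 FPKM in the mock mice and at 4.52, 6.11 and 4.59 FPKM in the irradiated mice (log2 change -0.27, SE 0.17, adjusted p = 0.35 by limma). Pms2, an endonuclease subunit, was at 4.27, 4.42 and 3.73 FPKM in the mock mice and at 2.94, 3.93 and 4.89 FPKM in the irradiated mice (log2 change -0.09, SE 0.20). Msh3, which recognises larger loops, had a log2 change of -0.012 (95% interval -0.40 to 0.37).

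Fancd2, which is ubiquitinated at blocked replication forks in crosslink repair (chromosome 6, 113531682 to 113597017), had the largest difference of the 47 genes. It was at 0.225, 0.187 and 0.184 FPKM in the mock mice and at 0.403, 0.772 and 0.988 FPKM in the irradiated mice, so every irradiated library was above every mock library and irradiated 1 was the closest to mock. Its means were 0.199 ± 0.023 and 0.721 ± 0.296 FPKM (SD, n = 3 each). With a mean of 0.460 FPKM it fell just under the filter, and in the fit without a filter its log2 change was 0.78 (SE 0.20, 95% interval 0.26 to 1.29, limma adjusted p = 0.15), where 1.45% of 23057 genes were called. Leaving out mock 2 and irradiated 1 together, it was called higher (log2 change 0.97, SE 0.22, limma adjusted p = 0.037), the 1 call among these genes under any setting tried. It then passed the filter only through the irradiated group, whose library closest to mock had been dropped, so this call is no support for a difference. Its partner in the same complex, Fanci, had overlapping groups, at 0.259, 0.289 and 0.299 FPKM in the mock mice and 0.221, 0.290 and 0.275 FPKM in the irradiated mice. Fanca, a subunit of the ubiquitin ligase complex that acts on both, was at 0.645, 1.03 and 0.850 FPKM in the mock mice and 0.712, 0.933 and 1.02 FPKM in the irradiated mice (log2 change 0.053, SE 0.19). Fancd2os, a gene that overlaps the end of Fancd2 by 257 bases on the other strand, was at 0.214 FPKM or less in each library.

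Ratios between partner genes within a library set aside whatever scales both genes alike. Transcript length, taken up below, need not do so. In all, 13 ratios were computed, chosen after the values had been seen, and no ratios of other gene pairs were computed for comparison. Xrcc5 over Xrcc6 was 0.885, 0.883 and 1.04 in the mock mice and 1.10, 1.17 and 1.27 in the irradiated mice, and Parp2 over Parp1 was 0.483, 0.555 and 0.541 in the mock mice and 0.463, 0.333 and 0.335 in the irradiated mice. Mre11a over Rad50 was 1.17, 1.43 and 1.15 in the mock mice and 0.816, 1.12 and 0.774 in the irradiated mice. Ogg1 over Mutyh was 1.82, 2.88 and 2.98 in the mock mice and 4.11, 5.04 and 7.68 in the irradiated mice. Atr over Atrip, the gene of its binding partner, was 0.256, 0.319 and 0.192 in the mock mice and 0.0903, 0.174 and 0.118 in the irradiated mice. In these 5 the groups did not overlap. The two-sided exact permutation p was 0.10, the smallest that 3 against 3 samples allow (0.26 after Benjamini-Hochberg adjustment over the 13). Ogg1 and Mutyh were already separated in opposite directions, so their ratio had to separate. As the pairs were chosen after the values had been seen, these p-values are no support for a difference. Among single genes tested 31.5% did not overlap, a share that is no background for ratios. Ercc1 over Ercc4, the subunits of 1 nuclease, was 4.11, 3.92 and 5.16 in the mock mice and 7.69, 4.18 and 6.00 in the irradiated mice, with overlap.

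Transcript length moved with the values of single libraries, and long transcripts are common among these genes. Of the 41 tested, 15 have a longest transcript over 5000 bases, Prkdc (12647), Brca2 (10724), Atm (9819) and Atr (8102) among them. In irradiated 1 the median level of those 15, taken relative to each gene's mean over the 6 libraries on the log2 scale, was -0.38, and that of the 9 under 2500 bases was 0.24. Irradiated 2 went the other way, with 0.046 for the long and -0.29 for the short transcripts. The same held over all genes tested, with medians of -0.34 and 0.21 in irradiated 1. Across the 41 genes, Spearman's rho between transcript length and a library's deviation from its group mean was -0.728 in irradiated 1, 0.744 in irradiated 2 and 0.131 in irradiated 3, and it was 0.565, -0.0544 and -0.576 in mock 1, 2 and 3. These are descriptions across genes, which are not independent, and the 3 deviations of a group sum to 0. Over the 41 genes rho between length and the log2 change was -0.40, beside -0.218 over the 14052 tested genes with a length. After each library had been corrected for transcript length and GC content, the log2 change was -0.24 for Atr, -0.046 for Atm and -0.20 for Lig3. Atr had moved there from -0.57, while Atrip, its partner in the ratios above, moved from 0.25 to 0.19. Mdc1 then had -0.33 and Mutyh, whose transcript is short, -0.68 (limma adjusted p = 0.15 and 0.073), while Ogg1 had 0.18. All 15 genes over 5000 bases shifted upward, which took some of them past 0, as Prkdc (from -0.094 to 0.25) and Dclre1c (from -0.099 to 0.24). The number of the 41 that lay lower was then 18 instead of 27. The correction was chosen after the data were seen.

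**Figure D4:**
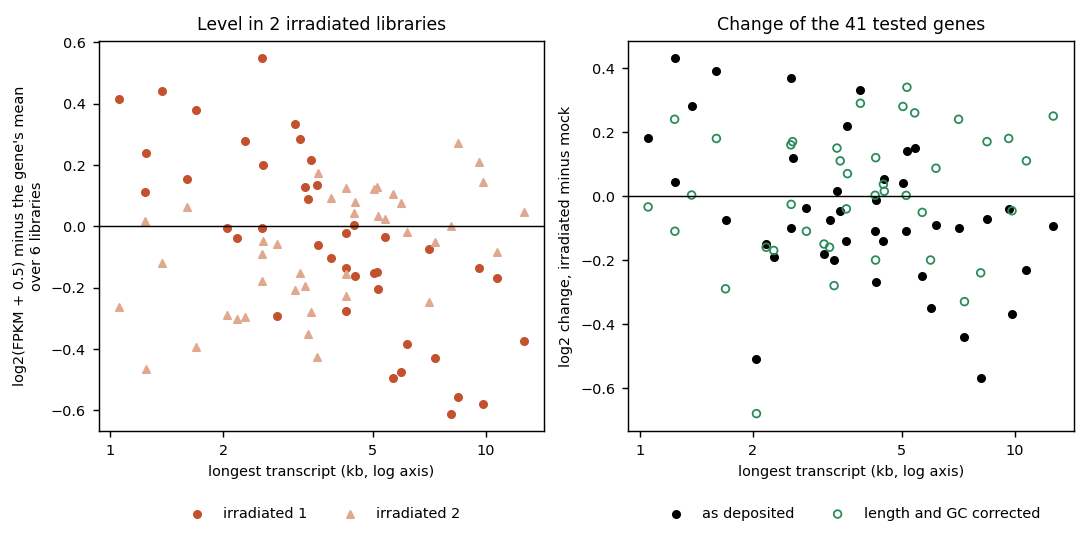
Left, level of the 41 tested genes in irradiated 1 (circles) and irradiated 2 (triangles), as log2(FPKM + 0.5) minus the gene's mean over 6 libraries, against the longest transcript (kb, log axis). Right, log2 change of the same genes as deposited (filled) and after correction for transcript length and GC content (open); the values of genes over 5000 bases shift upward, some toward 0 (Atr from -0.57 to -0.24) and some away from it (Prkdc from -0.094 to 0.25).

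Mock 2, the library lowest in telencephalon markers, differed less from the other mock libraries in these genes than over all genes tested. Between mock 2 and the mean of mock 1 and mock 3, the 41 repair genes differed by a median of 0.13 on the log2 scale, whatever the sign, and by 0.50 at most (Chek2). Over all genes tested the median was 0.23, and 2.80% differed by 1 or more, which none of the 41 did. The 0.13 was near the median size of 0.14 between irradiated and mock libraries for the same 41 genes. Mock 2 had the highest sum of cerebellum markers (2123.9 FPKM), so the comparison does not bear on the cerebellum difference between the groups. The spread between libraries of 1 group was much the same as elsewhere, with a median SD of 0.23 on the log2 scale for the 41 genes and 0.24 over all genes tested. Xpa had the widest (0.38) and Ercc6 the next (0.37).

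Several of the lowest repair genes start beside a gene of far higher level. Over all genes tested the median level was 9.55 FPKM, so most tested genes lie far above the lowest repair genes. Neighbours of other low genes were not compared. Of 17 neighbours described here, 12 had a higher mean FPKM than the repair gene, 7 of them by more than 3-fold and 5 by less, and 5 had a lower one. In 3 of those 5 the neighbour, beside Atr, Parp2 and Xrcc1, was under the filter, which the other 14 passed. Dctn5, a dynactin subunit gene, had 143 times the mean FPKM of Palb2, Nbr1, an autophagy receptor gene, 111 times that of Brca1, and Emc3, a gene of a membrane protein insertion complex, 95.5 times that of Fancd2. In the pairs of Lig3 and Gm11423 and of Xrcc4 and Tmem167 the repair gene was also the higher one. None of the 14 neighbours tested was called in limma (smallest adjusted p = 0.16), and at an unadjusted p under 0.05, 1 was lower and 0 higher. That was Npat, a histone gene activator beside Atm, with 3.03, 3.62 and 2.86 FPKM in the mock mice and 1.97, 2.66 and 1.79 FPKM in the irradiated mice. Toe1, beside Mutyh, had 10.4, 11.5 and 10.7 FPKM in the mock mice and 9.07, 8.80 and 8.89 FPKM in the irradiated mice (log2 change -0.27, SE 0.14). Emc3, beside Fancd2, had a log2 change of -0.056 (SE 0.15). Across the group, 17 of the 47 genes overlap a gene on the other strand that is also in the table. The libraries were stranded, but whether strand was used in quantification is not given in the sources used here, so reads from the overlaps may have been shared.

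**Figure D5:**
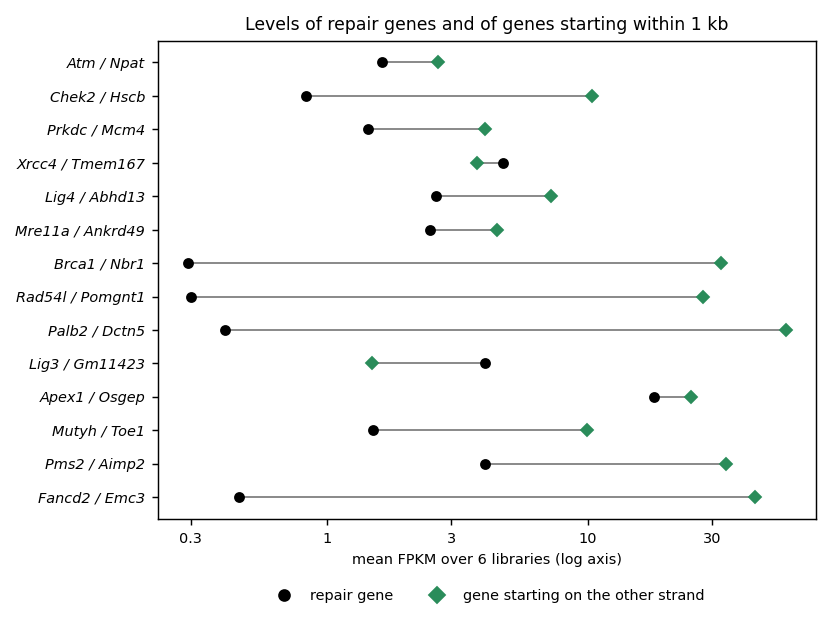
Mean FPKM over the 6 libraries (log axis) of a repair gene (circle) and of the gene that starts within 1 kb on the other strand (diamond), for the 14 pairs whose neighbour passed the filter. Pairs with a neighbour under the filter are not drawn; in 12 of the 14 the repair gene is the lower, and Brca1, Rad54l, Palb2 and Fancd2 lie 91.5 to 143-fold under their neighbours.

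A further 99 genes of the same pathways, listed by function, gave a smaller share of calls than all genes tested, but not of separated groups. Of these, 98 were in the table and 88 were tested. In limma 0 rose and 2 fell, 2.27% of the 88, beside 7.72% of all genes tested. Usp3, which encodes a deubiquitinase of histone H2A, was at 8.21, 9.18 and 6.88 FPKM in the mock mice and at 3.11, 3.26 and 3.34 FPKM in the irradiated mice (log2 change -1.19, SE 0.17, limma adjusted p = 0.0045). Rif1, which acts with 53BP1 to protect broken ends, was at 5.04, 6.08 and 3.56 FPKM in the mock mice and at 1.61, 2.47 and 1.74 FPKM in the irradiated mice (log2 change -1.13, SE 0.23, limma adjusted p = 0.024). Neither gene's groups overlapped. The Rif1 call was lost without mock 1 (adjusted p = 0.088), mock 2 (0.080) or irradiated 3 (0.092), without mock 2 and irradiated 1 together (0.061) and without a filter (0.12) in limma. With the telencephalon markers as a covariate neither Usp3 (log2 change -1, SE 0.25, limma adjusted p = 0.22) nor Rif1 (-0.75, SE 0.35, limma adjusted p = 0.53) was called. That covariate was -0.24, -2.19 and -0.24 in the mock libraries and 0.55, 0.85 and 1.49 in the irradiated ones, so it ran with the group. Over all genes tested 65 were called with it, so a lost call cannot tell region from irradiation. H2afx, which encodes the histone variant phosphorylated at breaks and was singled out after its values were seen, was at 29.5, 25.6 and 36.2 FPKM in the mock mice and at 42.1, 48.1 and 59.5 FPKM in the irradiated mice (log2 change 0.70, SE 0.19, limma adjusted p = 0.064). Its log2 change was 0.28 with the telencephalon covariate and 0.35 with the length and GC correction (limma adjusted p = 0.73 and 0.17). At an unadjusted p under 0.05, 2 of the 88 were higher and 14 lower (18.2% in all), beside 11.7% higher and 13.9% lower among all genes tested (25.6% in all). The groups did not overlap in 31 of the 88 (35.2%), with 5 higher and 26 lower. Over all genes tested it was 31.5%, with 13.7% above and 17.7% below the mock range. In 58 of the 88 (65.9%) the log2 change was negative, beside 51.8% of all genes tested. The median log2 change was -0.13, against -0.018. By role the medians ran from -0.27 for translesion synthesis and direct reversal (9 tested) to -0.016 for nucleotide excision (16 tested). Usp3 and Rif1 both belong to the role that marks chromatin around breaks, but 2 calls are too few to set roles apart. In the same libraries all 15 cerebellum markers fell, with a median log2 change of -3.17, and the part of regional makeup in the Usp3 and Rif1 differences was not tested.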

How the data were processed

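Brain RNA was sequenced as 6 stranded libraries, each made from 2 µg of RNA depleted of ribosomal RNA, with single-end reads of 75 nucleotides, per the labels' protocols. The authors deposited 1 table of FPKM, with 1 column per library. The submitters' processing notes name TopHat, Cufflinks, Cuffdiff and the mm10 build. Versions, settings, annotation and scaling total were not given in the sources used here. A leftover header line was dropped. The number of reads behind a value is not known, so no count model was used and no interval from counts is given.

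The 14585 genes averaging 0.5 FPKM or more were tested by limma (version 3.58.1, under R 4.3.3). The model held the group term alone, was fitted to log2(FPKM + 0.5) with an intensity trend, and gave two-sided p-values with Benjamini-Hochberg adjustment over these genes. The 0.5 added before taking logs shrinks the log2 changes of low genes. The fit was run on simulated data with independent noise for each gene, as a check of the code. Those data held no effect of brain region or transcript length, so the check does not bear on them. Nothing in the labels says that the samples of a group are separate animals, so p-values measure the spread between these samples, which may be technical.

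The 47 genes, the other lists and the tests were chosen with earlier results of these data known. Named with values in every library are called genes, the 2 genes of each role with the smallest p, 9 fixed genes, genes under the filter and, of the further genes, those called. Xrcc5, Apex1, Lig3 and H2afx fall outside this rule and were added after their values were seen. The marker Doc2g and the neighbours Npat and Toe1, given in every library too, are also outside it, and Npat was named for its unadjusted p. Alternatives were other pseudocounts, filters, scalings and fits, a replicate block, libraries left out, a telencephalon covariate (each library's median over the 8 centred markers) and a lowess correction for length and GC content (span 0.3). Of the neighbouring genes, 1 is not reported here, and the counts and levels of neighbours leave it out.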

Additional observations from a re-analysis of the deposited data

How the results depend on the processing

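The 22 tested repair genes given in full were recomputed under 18 alternatives, and none was called in any that included it. With a minimum mean of 1 FPKM, Brca2, Chek2 and Fanca were not tested, nor was Brca2 without mock 1. The adjusted p (limma) ran from 0.087 to 0.60 for Atr, from 0.067 to 0.63 for Mutyh, from 0.11 to 0.68 for Ogg1 and from 0.14 to 0.59 for Mdc1, and 12 of the 22 kept their direction throughout. Of all 47, Fancd2 alone was called, in 1 setting, without mock 2 and irradiated 1 together (1 gene higher). Its log2 change without a filter was 1.39 with a pseudocount of 0.1 and 0.51 with 1, and 0.62 to 0.98 with 1 library left out. The median over the repair genes was 0.019 with quantile normalization.

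Of the further pathway genes, 1 was called higher (H2afx) with median centring, with library weights and at an adjusted p under 0.1, and 0 to 1 with 1 library left out. Those called lower numbered 1 without a filter, 1 without mock 2 and irradiated 1 together, 0 with the telencephalon covariate, 4 with the length and GC correction, 5 at an adjusted p under 0.1, and 1 to 2 with 1 library left out. Over all genes the 1126 calls became 335 without a filter, 1839 with library weights, 65 with the covariate, 1727 with the length and GC correction, 2151 at an adjusted p under 0.1, and 407 (without irradiated 3) to 1368 (without irradiated 1).

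Reversed log2 changes were all of genes far from a call (adjusted p of 0.37 or more in limma). With quantile normalization Prkdc was 0.019 and Pms2 0.039, and with library weights 0.0098 and 0.024. Without mock 2 and irradiated 1 together, Prkdc was 0.12, Pms2 0.12 and Trp53bp1 0.041. The covariate gave Chek2 0.36, Trp53bp1 0.041 and Ercc2 -0.10. The length and GC correction gave Prkdc 0.25, Nhej1 -0.034, Trp53bp1 0.18, Brca2 0.11 and Pms2 0.087. With 1 library left out the log2 change ran from -0.21 to 0.071 for Prkdc, from -0.031 to 0.26 for Xrcc5, from -0.0047 to 0.35 for Nhej1, from -0.16 to 0.017 for Trp53bp1, from -0.3 to 0.047 for Rad52, from -0.25 to 0.079 for Pms2 and from -0.057 to 0.15 for Fanca. The cause was not tested for any of these changes.

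The labels do not say whether equal replicate numbers pair the samples. The deviations of same-numbered samples correlated at -0.33, 0.193 and 0.202 for numbers 1, 2 and 3. These values cannot settle it, since the 3 deviations of a group sum to 0 and ran with transcript length. With the replicate number as a block, 795 genes were called in all, 0 of the repair genes, and 2 further genes lower. The unknown read depth and 3 samples a group limit what can be seen of genes under 1 FPKM.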
